A study of Mus musculus with 2 samples.

Results

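The sciatic nerve peaks described here lie deep inside protein-coding genes and away from every annotated gene end. They were chosen by position and width from a list of H3K27me3 peaks made by chromatin immunoprecipitation and sequencing (ChIP-seq). A peak was taken when it was at most 5000 bp wide, lay fully inside a protein-coding gene, and was more than 5 kb from every protein-coding gene end and more than 2 kb from every long non-coding RNA (lncRNA) gene end. Of 6018 peaks, 935 (15.54%) met these terms and are called gene-body peaks below. They held 10.48% of the bases and 9.561% of the reads of all peaks, and 561 protein-coding genes, called host genes, contained at least 1 of them. The peak list, the width and the position chose them, so widths and reads are given as descriptions.

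The study holds 1 H3K27me3 ChIP library, immunoprecipitated from crosslinked chromatin, and 1 input library, from chromatin set aside before immunoprecipitation. Both came from C57/BL6 sciatic nerve, taken from males at an age of 8 weeks, with no further genetic change or treatment named in the labels. The sources used here do not give the number of animals, and values of the input library were not analysed here. There is no replicate, so no p-value is given, and every interval below is a 95% interval that covers counting error only.

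H3K27me3 is a histone mark written by Polycomb repressive complex 2 and is found over genes kept silent, above all regulators of cell types other than the one studied. In mammals this complex is drawn to CpG islands, stretches rich in the dinucleotide CG that often surround transcript starts. Many genes have more than 1 start, and one that lies inside the longest form of the gene can be silenced separately from the outer one. Sciatic nerve is mostly Schwann cells, with fibroblasts, blood vessels and immune cells, and with axons whose nuclei lie elsewhere. In such bulk tissue, fewer cells carrying the mark and less mark per cell cannot be told apart.

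Cell identity was checked only through the mark itself, which shows where a gene is marked and not how much RNA it makes. Of 16 defining markers of the cell types of nerve, 13 had interior sequence that could hold a gene-body peak, and none of these did. All 4 endothelial and mural markers and both immune markers had no peak. The part that the mix of cells has in the values below was not tested.

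Some of the strongest gene-body peaks lay over a transcript start inside a gene. The 6 starts shown here were picked by gene and not by strength, and their peaks held 37 to 105 reads. Tenm4 (89 reads) and Crybg1 (72 reads) are among those not printed. The sequences around the 6 starts show what lay beneath the peaks. Each covers the 300 bases from 250 before to 50 after a start, taken from RefSeq on build GRCm38.p6, the same assembly as mm10. They are written 5′ to 3′ on the strand of the gene, with every CG in capitals. They belong to Cacna1e, the pore subunit of a voltage-gated calcium channel (chr1:154725871-154726170, minus strand), Cnpy1, a relative of a zebrafish regulator of Fgf signalling (chr5:28210119-28210418, minus strand), Begain, a protein of neuronal synapses (chr12:109053707-109054006, minus strand), Wnt9b, a secreted Wnt ligand (chr11:103749772-103750071, minus strand), Bdnf, the neurotrophin (chr2:109694159-109694458, plus strand), and Cdkn2a, which encodes 2 cell cycle inhibitors from separate starts (chr4:89282143-89282442, minus strand).
Cacna1e internal start: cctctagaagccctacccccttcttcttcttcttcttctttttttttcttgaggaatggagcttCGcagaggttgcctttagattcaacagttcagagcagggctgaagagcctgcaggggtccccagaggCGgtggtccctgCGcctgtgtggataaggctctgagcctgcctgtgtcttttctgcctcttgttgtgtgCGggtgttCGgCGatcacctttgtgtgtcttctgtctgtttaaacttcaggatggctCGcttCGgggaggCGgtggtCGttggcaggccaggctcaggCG
Cnpy1 internal start: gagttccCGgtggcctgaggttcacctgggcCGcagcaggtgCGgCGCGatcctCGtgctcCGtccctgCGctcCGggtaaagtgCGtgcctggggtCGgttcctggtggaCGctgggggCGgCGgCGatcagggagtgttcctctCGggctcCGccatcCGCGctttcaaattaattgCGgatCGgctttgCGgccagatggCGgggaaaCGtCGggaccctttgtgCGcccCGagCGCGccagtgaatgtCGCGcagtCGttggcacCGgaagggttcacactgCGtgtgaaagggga
Begain internal start: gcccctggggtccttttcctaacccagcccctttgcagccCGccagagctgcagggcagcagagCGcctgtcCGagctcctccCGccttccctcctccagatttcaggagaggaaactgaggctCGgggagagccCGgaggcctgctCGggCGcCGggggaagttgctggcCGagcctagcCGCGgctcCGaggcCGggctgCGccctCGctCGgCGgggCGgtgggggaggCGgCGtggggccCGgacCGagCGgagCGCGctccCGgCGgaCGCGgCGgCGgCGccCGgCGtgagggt
Wnt9b internal start: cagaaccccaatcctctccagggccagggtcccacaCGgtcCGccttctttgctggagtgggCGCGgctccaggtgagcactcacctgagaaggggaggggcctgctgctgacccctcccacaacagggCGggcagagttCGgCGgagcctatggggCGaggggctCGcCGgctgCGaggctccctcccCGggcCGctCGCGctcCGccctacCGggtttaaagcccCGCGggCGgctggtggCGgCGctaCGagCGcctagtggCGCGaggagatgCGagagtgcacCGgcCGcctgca
Bdnf internal start: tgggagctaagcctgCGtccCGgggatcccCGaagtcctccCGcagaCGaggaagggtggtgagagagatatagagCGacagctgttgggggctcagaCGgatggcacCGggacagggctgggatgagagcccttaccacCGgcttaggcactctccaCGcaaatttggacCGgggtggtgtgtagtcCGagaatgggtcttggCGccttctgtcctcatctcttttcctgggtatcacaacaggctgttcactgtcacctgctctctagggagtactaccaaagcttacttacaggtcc
Cdkn2a internal start: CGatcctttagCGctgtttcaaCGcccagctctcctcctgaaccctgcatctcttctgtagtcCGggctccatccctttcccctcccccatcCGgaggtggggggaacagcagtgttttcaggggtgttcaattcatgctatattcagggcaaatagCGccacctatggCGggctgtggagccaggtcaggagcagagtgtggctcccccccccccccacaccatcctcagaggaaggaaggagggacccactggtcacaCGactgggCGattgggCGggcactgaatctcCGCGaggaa
Begain held 35 CG in its window, Cnpy1 34 and Wnt9b 29. Bdnf held 13, Cdkn2a 12 and Cacna1e 11.

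For contrast, starts of the same genes without a peak are printed for Cnpy1, whose outer start (chr5:28245739-28246038, minus strand) held 6 CG, and for Bdnf, whose downstream internal start (chr2:109709133-109709432, plus strand) held 2 CG. No peak lay within 2 kb of either.
Cnpy1 outer start: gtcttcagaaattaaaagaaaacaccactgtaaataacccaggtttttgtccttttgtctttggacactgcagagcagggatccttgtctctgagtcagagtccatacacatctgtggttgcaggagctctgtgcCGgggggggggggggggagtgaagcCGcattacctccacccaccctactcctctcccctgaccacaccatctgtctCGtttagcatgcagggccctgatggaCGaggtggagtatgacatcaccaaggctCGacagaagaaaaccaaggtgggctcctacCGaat
Bdnf downstream start: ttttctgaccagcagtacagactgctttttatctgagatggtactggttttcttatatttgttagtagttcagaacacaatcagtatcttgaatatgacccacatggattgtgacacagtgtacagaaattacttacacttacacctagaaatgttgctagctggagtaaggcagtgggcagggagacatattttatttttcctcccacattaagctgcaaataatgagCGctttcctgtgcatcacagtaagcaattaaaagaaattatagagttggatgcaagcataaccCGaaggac
In both pairs the start under a peak has more CG, at 34 and 6 in Cnpy1 and 13 and 2 in Bdnf. The order is not fixed within Bdnf, where the start at 109677032 lies under a peak with 7 CG. The one at 109722921 has 8 CG and no peak within 2 kb. Other genes go the opposite way, with no peak within 2 kb of the outer start: Begain has 35 CG at the internal start printed above and up to 46 at its outer starts, Crybg1 has 5 and 28, and Cdkn2a has 12 and 45.

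Across the gene-body peaks, most were small, and a minority were broad and read-rich. Reads per peak here are the authors' score divided by its step, as described under processing. The median gene-body peak had 12 reads (quartiles 10 and 18.5) in 500 bp, which is the shortest width in the list. In all, 483 peaks (51.66%) were exactly 500 bp wide and 433 (46.31%) held 10 or 11 reads, the lowest values in the list. At 10 reads the exact Poisson interval runs from 4.795 to 18.39, so the order among these small peaks cannot be read. At the other end, 216 gene-body peaks (23.1%) held 20 reads or more, 58 (6.203%) held 50 or more, and 65 (6.952%) were 2000 to 5000 bp wide, with a median of 62 reads.

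Width and reads went together, at a nearly constant 20.09 reads per kb over the gene-body peaks. The lowest values in the list, 10 reads in 500 bp, already give 20 reads per kb. That was also the median of the 500 bp peaks in gene bodies, at gene ends and outside genes. The lower limit of the list thus bears on this constancy and on the likeness between classes given below, and how much was not tested. Compared with peaks of the same width limit elsewhere, gene-body peaks were like those outside genes and smaller than those at gene ends. Gene-body peaks had a median of 12 reads and 23.1% held 20 reads or more. The 2145 peaks at gene ends, within 2 kb of a protein-coding end, had a median of 18 reads, and 46.85% held 20 or more. The 1491 peaks outside genes had a median of 11 reads, and 21.53% held 20 or more. Reads per kb differed less, at 20.09 in gene-body peaks, 21.66 at gene ends and 20.16 outside genes.

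**Figure D1:**
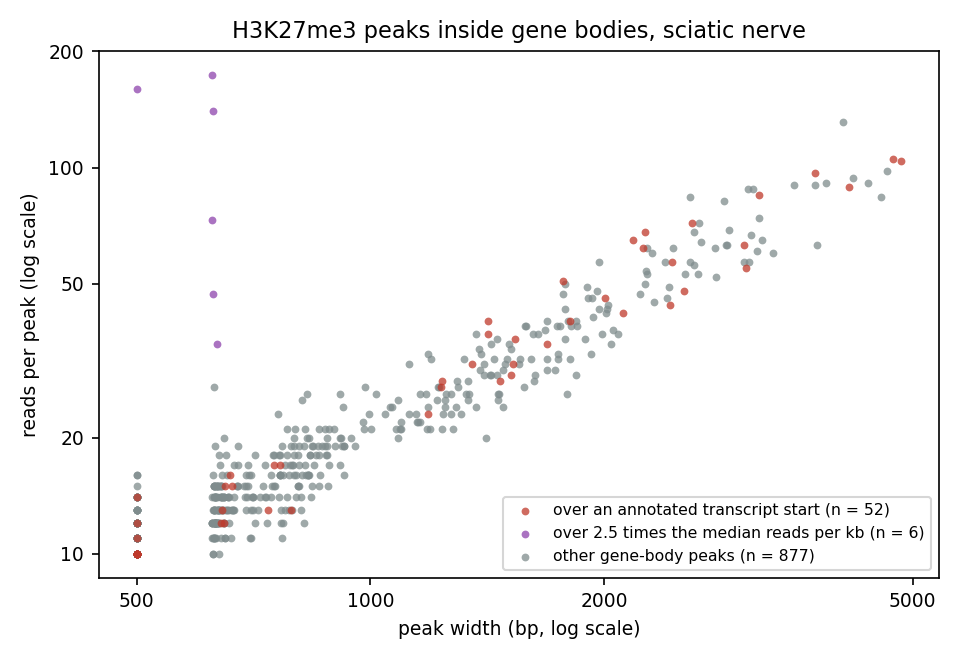
Reads per peak against peak width in bp, both on log axes, for the 935 gene-body peaks, 1 point each; red marks the 52 that cover an annotated transcript start and purple the 6 with over 2.5 times the median reads per kb of the list. Points rise together along 1 line, the red ones reach 105 reads, and the 6 purple ones stand above the line at 500 to 634 bp.

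The 3 gene-body peaks with most reads did not follow this relation. A peak of 625 bp inside the overlapping genes Cmss1 and Filip1l had 174 reads (chr16:57391308-57391932), one of 500 bp inside Chl1, a neural adhesion molecule, had 160 (chr6:103648962-103649461), and one of 626 bp inside Zc3h7a had 140 (chr16:11143875-11144500). These correspond to 278.4, 320.0 and 223.64 reads per kb. Narrow peaks inside Cdk8 (73 reads), Gphn (47 reads) and Camk1d (35 reads) likewise exceeded 52.42 reads per kb, 2.5 times the median of all peaks. Each of the 6 lay alone, with the nearest other peak between 240951 and 3212898 bp away. Their mappability and the input signal there were not analysed here.

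The other gene-body peaks among the 15 with most reads, with 1 more tied at 88 reads, were 3067 to 4824 bp wide. Gata4, a zinc finger regulator of heart and endoderm, had 131 reads in 4068 bp (chr14:63238896-63242963). Cacna1e had 105 reads in 4715 bp, Cnpy1 104 reads in 4824 bp and Begain 97 reads in 3746 bp. The homeobox genes Vax2 (98 reads), Six2 (91 reads) and Lhx6 (90 reads), which act in eye, kidney and forebrain interneurons, and the nuclear receptor gene Nr2e1 of neural stem cells (91 reads) had peaks of similar size. Alox15, a lipoxygenase, had 94 reads, and Sptbn4, the spectrin that anchors channels at nodes of Ranvier, had 90. Tenm4, a teneurin of cell contact, had 89 reads, and Rbfox3, the neuronal splicing regulator also known as NeuN, and Skor2, a corepressor of Purkinje cells, had 88 each.

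Gene-body peaks were hardly denser than peaks outside genes. There were 935 in 835.5 Mb of interior sequence that met the distance terms, or 1.119 per Mb (1.049 to 1.193), against 1491 in 1465.8 Mb outside genes, or 1.017 per Mb (0.9662 to 1.07). The ratio was 1.1 (1.013 to 1.195) over all chromosomes and 1.001 (0.9209 to 1.087) on autosomes alone. Assembly gaps and sequence that reads cannot be placed in were not removed from either length.

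Chromosomes differed more than interior and outside sequence did. Chromosome 4 had 2.043 gene-body peaks per Mb of interior (102 peaks), chromosome 7 had 1.873 and chromosome 19 had 1.841. The lowest autosomes were chromosome 13, with 8 peaks and 0.2371 per Mb (0.1024 to 0.4672), and chromosome 3, with 0.4521 per Mb. Chromosome X had 0 in 37.92 Mb, which allows at most 0.09728 per Mb by the exact Poisson interval. This was not particular to gene-body peaks. The ratio to peaks outside genes fell from 1.1 to 1.001 on autosomes, so those peaks were sparser on the sex chromosomes too.

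Host genes were a small share of the genes that could have held such a peak. Of 13478 protein-coding genes with at least 500 bp of interior past the distances, 561 held a gene-body peak (4.16%). Among them, 376 held 1 peak, 101 held 2 and 84 held 3 or more, and these 84 genes contained 363 of the 935 peaks (38.82%). Longer genes were hosts more often, with 1.039, 3.117, 4.007 and 8.487% in quartiles of increasing interior length, while peaks per Mb of interior were 2.607, 2.747, 1.53 and 0.8668. The quartile with most interior thus had the most hosts and the fewest peaks per base.

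**Figure D2:**
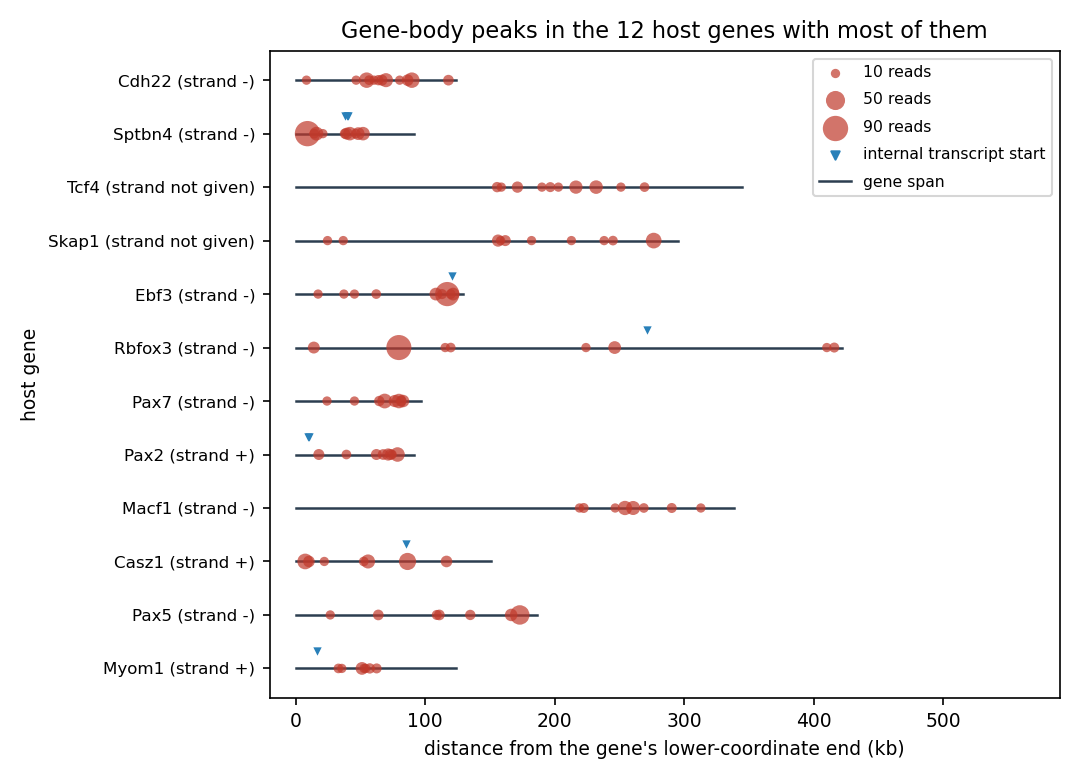
Gene-body peaks along the 12 host genes with most of them; the horizontal axis is the distance in kb from the end of the gene with the lower coordinate, circles are peaks with area following reads, blue triangles are internal transcript starts and lines are gene spans. Peaks spread through Cdh22 over 110.2 kb, are absent from the left part of Tcf4 and Macf1, and sit within 30.09 kb in Myom1. Starts of Tcf4 and Skap1 are not listed, so these genes carry no triangle.

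Cdh22, a neural cadherin, held the most, with 12 gene-body peaks of 10 to 32 reads (median 13.5) spread over 110.2 kb of the gene. Sptbn4 followed with 10 peaks of 10 to 90 reads, 247 in all, within 45.28 kb. The largest was at chr7:27363571-27367308, with 90 reads, and 1 of 13 reads covered an internal start. Tcf4, a helix-loop-helix factor of neural development, also held 10, with 10 to 24 reads each. No peak lay within 2 kb of either end of Sptbn4 or Tcf4, so the mark in both was seen in the interior alone. Macf1, a cytoskeletal linker (8 peaks, 118 reads), and Myom1, a sarcomere protein of muscle (7 peaks, 87 reads), were likewise marked in the interior and had no end peak.

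The others among the 12 were marked at an end as well. Skap1, an adaptor of T cells, held 10 gene-body peaks with 138 reads, beside 53 reads in peaks at its ends. Of the developmental regulators, Ebf3 held 9 (188 reads), Pax7 8 (143 reads), Pax2 8 (127 reads), Casz1 7 (154 reads) and Pax5 7 (135 reads), and Rbfox3 held 8 (180 reads). End peaks held 520 reads at Pax7, 331 at Pax2, 159 at Pax5, 156 at Ebf3 and 88 at both Casz1 and Rbfox3. The 3 Pax genes thus had more reads in end peaks than in gene-body peaks, and Skap1, Ebf3, Casz1 and Rbfox3 had fewer.

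Host genes had a peak at an end far more often than other genes did. Of 561 host genes, 283 (50.45%, 46.23 to 54.66) had a peak within 2 kb of an annotated end, while 924 of the 12917 other genes with interior sequence did (7.15%). Host genes are longer, and the difference was present in every quartile of interior length, with 51.43, 54.29, 51.85 and 48.25% of host genes and 6.687, 4.749, 6.679 and 10.7% of the other genes from the shortest quartile to the longest.

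Gene-body peaks in genes with a marked end were somewhat larger. The 532 in hosts with an end peak had a median of 12 reads, and 26.13% held 20 or more, while the 403 in hosts without one had a median of 11, and 19.11% held 20 or more. Of the hosts, 238 (42.42%) were touched by no peak other than gene-body peaks, and 188 of these had a single one. Closeness to other peaks made a larger difference. The 415 gene-body peaks (44.39%) with another peak within 5 kb had a median of 14 reads, and 33.25% held 20 or more. The 520 without had a median of 11, and 15% held 20 or more. The 76 within 10 kb of a peak over 5000 bp wide had a median of 19, and 48.68% held 20 or more.

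Gene-body peaks gathered around internal transcript starts, though most lay over 2000 bp from any listed one. The start table gives no starts on chromosome 18, so 37 peaks there were not placed. It also lacks genes on other chromosomes, and lists a start for 431 of the 561 hosts. Of the 898 others, 52 covered a listed start of a protein-coding gene, 56 came within 2000 bp of one, and 790 did not. Peaks in hosts without a listed start fell among the 790 unless another gene's start was near. The 790 can thus include peaks near unlisted starts, and the densities below carry the same limit. Interior within 2000 bp of a start made up 7.007 Mb and was touched by 108 gene-body peaks, or 15.41 per Mb (12.64 to 18.61). The rest of the interior held 790 in 800.8 Mb, or 0.9865 per Mb (0.9189 to 1.058). The ratio was 15.62 (12.66 to 19.12). In shares, 12.03% of these gene-body peaks touched 0.8674% of the interior. A peak counted as near when any part of it came within 2000 bp, and the Mb made no allowance for peak width, which raises the ratio. The interval treats peaks as separate counts, although neighbours can belong to 1 marked stretch.

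Peaks over a start were also larger, though a wide peak is more likely to cover a start than a narrow one. The class thus favours large peaks by the way it was set, and peaks matched in width were not compared. The 52 had a median of 28 reads and 1295.5 bp, and 55.77% held 20 reads or more. The 56 near a start had a median of 14 reads. The 790 with no listed start within 2000 bp had a median of 12, with 20.51% at 20 or more. Reads per kb were alike, at 21.54 over a start, 22 near one and 20 elsewhere, all close to the lower limit of the list given above.

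Internal starts under a gene-body peak were richer in CG than those without a peak. A start counted as under a peak when the peak overlapped its 300-base window by at least 1 base, which gave 67 starts in 55 genes. Their windows held a median of 16 CG (quartiles 10 and 26) and 63.67% G and C, with CG at 0.5948 of the number that base composition would give. The 1825 internal starts with no peak within 2 kb held a median of 6 CG (quartiles 3 and 13) and 52% G and C, with CG at 0.3033 of that number. Of the starts under a peak, 41.79% had 20 CG or more, against 15.78% of those without a peak and 35.94% of all 21263 protein-coding starts in the table. CG reads the same on both strands, so the count covers both.

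The share of starts under a gene-body peak climbed with CG count up to 20 to 29. It was 0.8174% (6 of 734) for starts with 0 to 4 CG, 1.968% (11 of 559) for 5 to 9, 6.769% (22 of 325) for 10 to 19, 9.884% (17 of 172) for 20 to 29, and 6.667% (11 of 165) for 30 or more. The intervals of the 3 classes from 10 CG upward overlap. The peaks over the 2 classes with fewest CG had a median of 12 reads each, and those over the other 3 had medians of 31, 29.5 and 29.

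**Figure D3:**
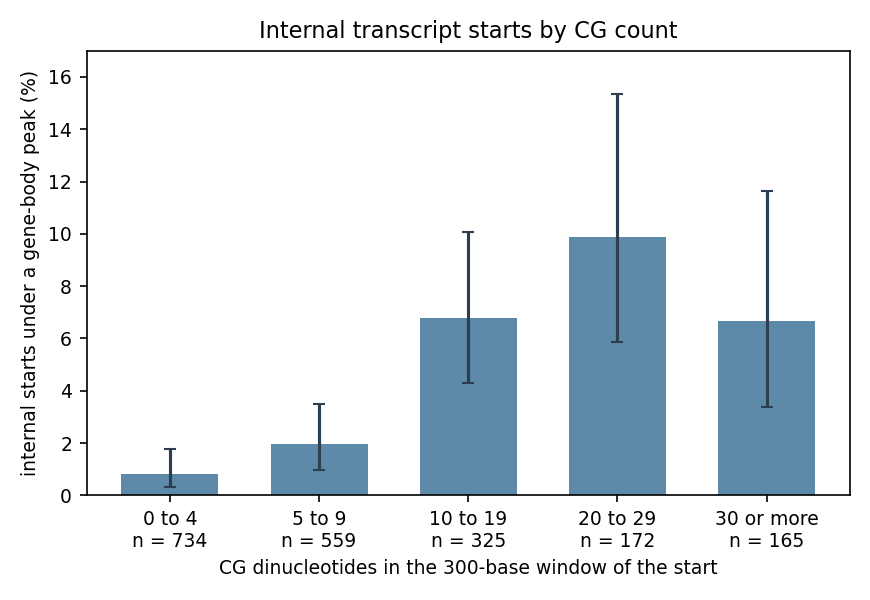
Share in percent of internal transcript starts that lie under a gene-body peak, by the number of CG dinucleotides in the 300-base window of the start; bars are shares, error bars are exact Clopper-Pearson 95% intervals and n is the number of starts. The share is 0.8174% at 0 to 4 CG and between 6.667 and 9.884% from 10 CG upward.

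The CG count did not separate marked internal starts from the outer starts of the same genes. Of the 55 genes, 34 have their outer start in the table, and both the internal and the outer starts had a median of 18 CG. The internal start had more CG than the outer one in 17 of the 34. In 13 of them the outer start also had a peak within 2 kb, and in 21 it did not.

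Individual genes showed both patterns. In Cnpy1 the gene-body peak of 104 reads lay over the internal start at 28210168, printed above, while the outer start was 34036 bp from the nearest peak. In Tenm4, which mice need for myelination of small axons in the central nervous system, a peak of 89 reads covered the internal start at 96211671 (12 CG), 38136 bp from the outer start, which had 6 CG. The peak of 105 reads in Cacna1e covered the only start that the table lists inside the gene. Further starts under peaks of over 40 reads included those of Crybg1 (72 reads), the nuclear receptor gene Esrrb (68 reads), the pituitary homeobox gene Lhx4 (65 reads), Mecom, a zinc finger regulator of blood stem cells (63 reads), Pak6, a kinase (62 reads), Celf5, an RNA-binding protein (57 reads), Syt2, a synaptotagmin of fast synapses (51 reads), and Slc12a5, the neuronal chloride exporter (44 reads). These 8 were chosen after their values were seen.

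Bdnf and Cdkn2a, both on the nerve repair list, show how the mark was placed among several starts. Bdnf has 7 starts in the table. Its first, at 109674700 with 11 CG, lay under a peak of 29 reads. The next, at 109677032 with 7 CG, lay under one of 40 reads. The gene-body peak, also of 40 reads (chr2:109693177-109694985), covered the start at 109694409 and lay 150 and 741 bp from those at 109693027 and 109692436. The last 2 starts, with 2 and 8 CG, were 14398 and 27936 bp from any peak. The mark thus lay at or near the first 5 starts and not at the 2 farthest downstream.

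In Cdkn2a a gene-body peak of 37 reads (chr4:89281259-89282675) covered the internal start at 89282192, from which the p16 inhibitor is made. A second gene-body peak, of 63 reads over 3763 bp (chr4:89283573-89287335), lay 898 bp upstream of the first. Of the 4 peaks that touched the gene, 1 was over 5000 bp wide, and peaks within 2 kb of its ends held 196 reads. The outer start at 89294619, used for p19Arf and with 45 CG, was 3964 bp from the nearest peak, which had 28 reads. The start with more CG was therefore the one without a peak over it. In Runx1 the order of CG was the opposite. Its internal start at 92697329 (35 CG) lay between gene-body peaks of 23 and 33 reads, the nearer 1091 bp away, and its outer start at 92826074 (2 CG) was 122257 bp from the nearest peak.

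Gene-body peaks were densest near the 5′ end of genes. Among the 10698 genes with interior sequence whose strand the table gives, hosts or not, interior 5 to 10 kb from the 5′ end held 2.761 peaks per Mb (2.31 to 3.274), and the density fell to 1.797 at 10 to 20 kb, 1.245 at 20 to 50 kb, 1.056 at 50 to 100 kb and 0.5193 farther in. From the 3′ end the same steps gave 1.662, 1.576, 1.433, 1.143 and 0.6414 per Mb. Only long genes reach the far steps. Peaks per Mb were 2.607 in the quartile of genes with least interior and 0.8668 in that with most. The fall with distance was not separated from gene length. The intervals at 5 to 10 kb do not overlap, at 2.31 to 3.274 for the 5′ side and 1.316 to 2.071 for the 3′ side. The median place of the 709 peaks with a stranded host was 43.5% of the way along the gene. Reads changed little, with medians of 12.5 at 5 to 10 kb from the 5′ end and 11 beyond 100 kb.

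**Figure D4:**
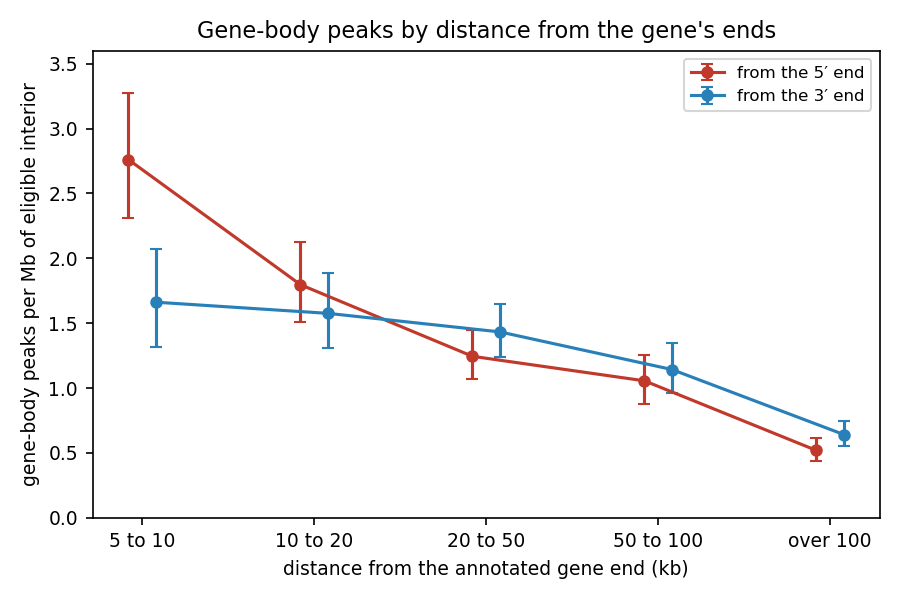
Gene-body peaks per Mb of interior sequence by distance in kb from the annotated 5′ end (red) and 3′ end (blue), over all 10698 stranded genes with interior sequence, hosts or not; points are densities and error bars exact Poisson 95% intervals. The 5′ value at 5 to 10 kb, 2.761 per Mb, stands above the 3′ value of 1.662, and both sides decline to 0.5193 and 0.6414 beyond 100 kb. Genes of all lengths are pooled, and only long ones reach the far steps.

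By gene group, developmental transcription factors had the most gene-body peaks per base. The lists below were compiled from gene names and known roles, with earlier results of these data known. Each is described by its hosts, out of genes with interior sequence, and by its density over that of all such genes. For all such genes the host share is 4.16%. Of 256 developmental transcription factors, 80 (31.25%) were hosts, with 203 gene-body peaks, 68 of them with 20 reads or more, at 5.703 times the overall density (4.945 to 6.544). Leaving out Rbfox1 and Rbfox3, which are splicing regulators, gave 5.733. An end peak was present at 64 of the 80 hosts.

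Among these factors the homeobox genes and the helix-loop-helix genes were densest. Of 70 homeobox genes, 27 were hosts, at 12.95 peaks per Mb, and Lmx1b, which patterns limb and midbrain, had 6 peaks of 10, 32, 34, 43, 57 and 62 reads. Of 18 helix-loop-helix genes, 7 were hosts (11.28 per Mb), led by Ebf3 and Tcf4. Of 59 zinc finger genes, 17 were hosts (6.127 per Mb), led by Gata4, where peaks of 10, 13, 26, 26 and 29 reads accompanied the one of 131. In the T-box, forkhead, Sox and Runx families 10 of 37 were hosts (5.278 per Mb), and of 38 nuclear receptor genes 8 were (2.537 per Mb). All of these groups exceeded the overall 1.119 per Mb.

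**Figure D5:**
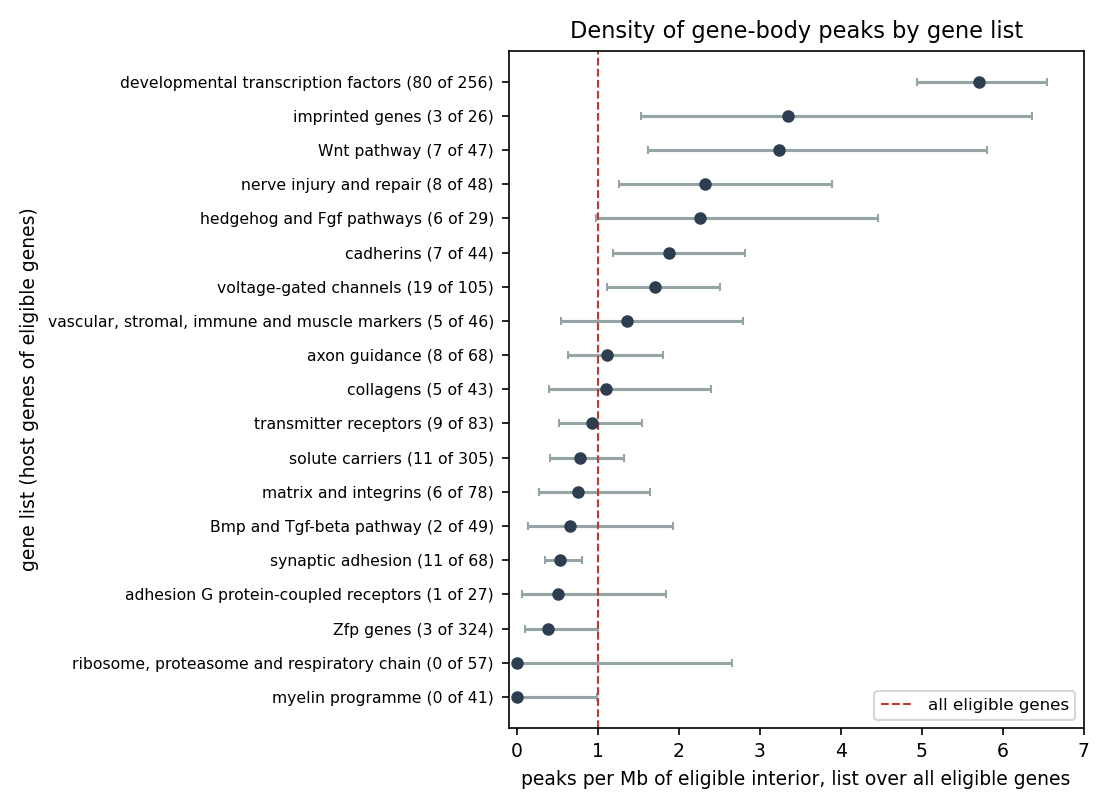
Gene-body peaks per Mb of interior in each of 19 gene lists, divided by the density over all genes with interior sequence, with the number of host genes of all such genes in brackets; points are ratios, bars exact Poisson 95% intervals and the dashed line is 1. Developmental transcription factors stand at 5.703, the myelin and housekeeping lists at 0, and most other intervals include 1.

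Among signalling genes, Wnt ligands had the most gene-body peaks per base. In the Wnt pathway 7 of 47 genes were hosts, at 3.243 times the overall density (1.619 to 5.803). Among peaks at or above the median score the value was 1.474 (0.1785 to 5.325), an interval that includes 1. Of 15 Wnt ligands 4 were hosts, with 7 peaks at 19.94 per Mb, and Wnt9b had 97 reads in 2 peaks, Wnt3 45 and Wnt3a 20. The other Wnt hosts were Ror2, a receptor (21 reads), Wif1, a secreted inhibitor, and Lef1, a nuclear effector. In the hedgehog and Fgf pathways 6 of 29 genes were hosts, at 2.263 times (0.977 to 4.459), among them the ligand gene Fgf12 (46 reads) and the receptor gene Fgfr2 (22 reads). In the Bmp and Tgf-beta pathway 2 of 49 were hosts, the ligand gene Gdf6 (12 reads) and the antagonist gene Fstl4 (21 reads).

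Nerve injury and repair genes, which Schwann cells switch on after a nerve is cut, had 8 hosts of 48, at 2.32 times the overall density (1.268 to 3.893). With peaks within 5 kb of each other counted once the value was 1.867 (0.8536 to 3.544), an interval that includes 1. The list holds genes taken from earlier Polycomb studies of the Schwann cell, with Runx2 and Cdkn2a among its hosts, and without these 2 the value was 1.932 (0.9644 to 3.457). Of its 9 regulators 6 were hosts, with 100 reads in Cdkn2a, 99 in Runx3, 69 in Runx1, 35 in Pax3, 19 in Runx2 and 10 in Hmga2. Of 19 secreted factors only Bdnf was a host (40 reads), and of 20 receptor and adhesion genes only Ncam1 was (14 reads). Runx1, Runx3, Runx2 and Ncam1 had no peak within 2 kb of an end. The hosts of this list were thus mostly regulators, and Runx1, Runx2, Runx3 and Pax3 stand on the developmental list as well.

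Genes of neurons were hosts more often than average but were not always denser in gene-body peaks. Of 105 voltage-gated channel genes 19 (18.1%) were hosts, at 1.713 times the overall density (1.119 to 2.51), or 1.409 (0.8054 to 2.288) at 10 kb from gene ends. Cacna1e (105 reads) and the potassium channel genes Kcng1 and Kcnh3 (32 reads each) were among them. Of 68 synaptic adhesion genes 11 (16.18%) were hosts, yet the density was 0.5383 of the overall value (0.3449 to 0.8009). The median gene of that list has 398.6 kb of interior. Nrxn2, a presynaptic adhesion receptor, had 6 peaks with 148 reads, 84 of them in 1 peak (chr19:6426981-6429559), Tenm4 had 3 with 131 and Shank1, a postsynaptic scaffold, 2 with 87. Of 83 transmitter receptor genes 9 were hosts (0.9356 times), 6 of them glutamate receptor genes, led by Grin2c with 46 reads in 1 peak, Grm4 with 41 in 4 and Grik4 with 37 in 3.

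Axon guidance genes, which steer growing axons, stood at 1.114 times the overall density (0.6365 to 1.808), with 8 hosts of 68. Of 35 receptor genes 6 were hosts, and Unc5b, a netrin receptor, had 4 peaks with 128 reads, the largest with 67 (chr10:60810807-60813901). Epha8, an ephrin receptor, had 3 peaks with 33 reads and Unc5a 1 with 16. Of 33 ligand genes only Slit1 (4 peaks, 60 reads) and Slit3 were hosts.

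In 2 lists a single gene carried the value. Cadherins stood at 1.878 times the overall density (1.191 to 2.818) with 7 hosts of 44, but without Cdh22 the value was 0.9066 (0.4526 to 1.622). Imprinted genes, expressed from 1 parental copy, stood at 3.348 times (1.531 to 6.356) with 3 hosts of 26. Without Zdbf2 the value was 1.154 (0.2379 to 3.372), and at 5 kb from lncRNA ends it was 1.667 (0.4541 to 4.267). Zdbf2 held 6 gene-body peaks of 11 to 37 reads (135 in all), 11 peaks of any kind touched it and no peak lay within 2 kb of its ends. Gnas, which encodes the stimulatory G protein subunit, held 1 peak of 69 reads (chr2:174297822-174300719), and Asb4 held 2 with 22 reads.

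Myelin genes had no gene-body peak. Of 41 genes of the myelin programme, 29 structural and 12 regulatory, 0 were hosts, which allows a share of up to 7.317% (3 of 41), and their density was at most 0.9974 of the overall value, a bound that passed 1 under several settings and reached 4.317 at 20 reads or more. The 57 ribosome, proteasome and respiratory chain genes also had 0 hosts, which allows up to 5.263%, but their short interiors bound the density only at 2.656 times. Of 324 Zfp genes 3 were hosts, at 0.3916 times (0.1067 to 1.003). The Zfp hosts were Zfp64 (45 reads), Zfp385c (17 reads) and Zfp423 (10 reads). Collagens (1.103 times), matrix and integrin genes (0.7589), solute carriers (0.7763), adhesion G protein-coupled receptors (0.5091) and markers of vascular, stromal, immune and muscle cells (1.357) all had intervals that include 1. On autosomes alone the markers of vascular, stromal, immune and muscle cells stood at 2.622 times (1.054 to 5.402). Among solute carriers the largest values were 54 reads in Slc12a5 and 37 in Slc6a5, a glycine transporter of inhibitory neurons, and among collagens 52 in Col13a1, a collagen of the neuromuscular junction. In the marker list the muscle calcium release channel gene Ryr1 had 82 reads in 3 peaks, and 0 of 10 fibroblast and perineurial markers were hosts.

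Most hosts belonged to none of these groups. Of 561 hosts, 185 were in at least 1 list and 376 in none. Those in none with the most gene-body peaks, after Sptbn4, Skap1, Macf1 and Myom1, included Trp73, a relative of p53 (7 peaks, 86 reads), Srcin1, an inhibitor of Src kinase (6 peaks, 193 reads), Enpp6, a phosphodiesterase of new oligodendrocytes (6 peaks, 70 reads), and Srrm3, a splicing regulator of neurons (5 peaks, 188 reads). Srrm3 and Enpp6 had no end peak. These 4 were chosen after their values were seen.

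Few gene-body peaks overlapped a small non-coding RNA gene or a pseudogene. Of the 935, 1 overlapped a microRNA gene (Mir6405), 6 overlapped a pseudogene, 0 overlapped a snoRNA, snRNA, tRNA or rRNA gene, and 32 lay fully inside an lncRNA gene.

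The limits of the choice are drawn through a continuum of peaks. The gene-body peaks nearest to a protein-coding end were in Cfap74 (5008 bp, 10 reads), Lactbl1 (5035 bp, 10 reads), Alox15 (5062 bp, 94 reads), Insrr (5064 bp, 53 reads) and Lmo1 (5097 bp, 10 reads). Just too near were peaks in Wnt8b (4994 bp, 12 reads), Wnt5a (4980 bp, 30 reads), Ttc6 (4944 bp, 16 reads), Plag1 (4944 bp, 12 reads) and Runx1 (4927 bp, 18 reads). The widest gene-body peaks were those of Cnpy1 (4824 bp), Cacna1e (4715 bp) and Vax2 (4632 bp), while 9 peaks past the distances were too wide, the narrowest in Sim2 (5036 bp, 119 reads), Pde10a (5605 bp, 136 reads) and Sim1 (6090 bp, 149 reads).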

How the data were processed

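H3K27me3 ChIP-seq of sciatic nerve gave 1 deposited list of peaks on mm10, with Bowtie among the tools, per the submitters' processing notes. The sources used here do not give the peak caller, its threshold, the use made of the input or the meaning of the score. The score that the authors deposited for each peak lay within 0.05 of a whole multiple of 2.5735 for 99.73% of peaks, so reads were taken as score over 2.5735, an assumption of this report, and the lowest score, 25.7, then stands for 10 reads. A peak of 10 reads has a relative counting error of 31.62%. The depth of either library is not known.

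Peaks were set against RefSeq genes of GRCm38.p6 (21887 protein-coding and 12727 lncRNA genes) with Python 3.11.15, NumPy 2.4.6, pandas 2.3.3 and SciPy 1.17.1. Interior sequence was every stretch of at least 500 bp that met the distances, and peaks outside genes were measured between the first and the last gene of each chromosome. Starts and strands came from RefSeq start windows of 300 bases, which cover no gene on chromosome 18. They cover 10698 of the 13478 genes with interior sequence. CG was counted as the letters CG. Counts carry exact Poisson and shares exact Clopper-Pearson 95% intervals, and for a share of 0 the limit is 3 counts. The counting was tested on simulated peaks. Exons and the base composition of the peaks themselves were not analysed here, since no genome sequence was used here.

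The peaks and the 19 gene lists were chosen with earlier results of these data known. Genes named are the 15 peaks with most reads, the 12 hosts with most peaks, up to 4 hosts a list and the peaks nearest each limit, beside genes marked in the text as chosen after their values were seen and those named for their transcript starts. Some genes that these rules take are not reported here. Of the settings tried, 9 were planned and 3 were added after seeing the data, as was the leaving out of single genes from 4 lists.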

Additional observations from a re-analysis of the deposited data

How the results depend on the processing

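Against 935 gene-body peaks, 561 hosts and a median of 12 reads (20.09 per kb), peaks at or above the median score left 374 peaks, 262 hosts and a median of 22 reads (21.88 per kb), and peaks of at least 20 reads, a setting chosen after seeing the data, left 216, 163 and 33.5 (21.88 per kb), because both remove small peaks. Gene-body peaks per Mb of interior, 1.119, became 0.9042 at 10 kb from gene ends, 1.443 at 2 kb, 1.224 with lncRNA genes ignored, 1.041 for peaks of at most 2000 bp, 0.4477 at or above the median score, 0.2585 at 20 reads or more and 0.8941 with peaks within 5 kb counted once. The ratio to sequence outside genes, 1.1, became 1.245 at 2 kb, 1.257 at or above the median score and 1.001 on autosomes. List densities over the overall value at or above the median score were 7.234 for developmental transcription factors, 4.557 for repair, 1.474 (0.1785 to 5.325) for Wnt and 0 for matrix and for Bmp genes. At 20 reads or more they were 8.269 for developmental transcription factors, 5.021 for repair, 8.052 for imprinted, 0.8738 for synaptic adhesion, 0.6025 for axon guidance and 0 for matrix, Bmp and adhesion receptor genes. Repair genes stood at 1.867 (0.8536 to 3.544) with peaks within 5 kb counted once, and the vascular, stromal, immune and muscle markers stood at 2.622 (1.054 to 5.402) on autosomes. Apart from changes in the number of peaks kept, the cause was not tested. Of 228 list values recomputed, 215 stayed within the first interval and 16 crossed 1, all in lists whose interval included 1. The share of hosts with an end peak stayed within its interval throughout. No paired analysis was possible because the study has 1 ChIP library. The list holds no value below 10 reads, so weaker marking inside genes was not detectable, and no value was set against variation between animals.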
